A study of Mus musculus with 8 samples.

Results

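The proteasome genes of mouse quadriceps muscle were compared between 4 mice labelled Nup210-/- and 4 mice labelled Nup210+/+. The members were taken by symbol, as every gene of the deposited table whose name begins with Psm, a letter from a to g and a digit, and 54 rows had such a name. Leaving out 4 pseudogene rows, whose TPM was at most 0.52 in any library, gave 50 members among 47643 genes. They hold subunits of the 20S core and of the 19S cap, the immune subunits, activators, the inhibitor and assembly chaperones. One of the 50, Psmc3ip, matches by name alone: it encodes a cofactor of meiotic recombination and is no part of the proteasome.

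All 8 mice are labelled with the strain C57BL/6, which the methods name as a backcross to C57BL/6J, and none is labelled with a treatment. The Nup210-/- animals are constitutive knockouts, obtained by recombination of a floxed exon 2 with HprtCre and therefore not restricted to muscle fibers, and Nup210 encodes a nucleoporin of the nuclear pore membrane. Age and sex of these 8 mice are not given in the sources used here. RNA was measured by sequencing of polyadenylated transcripts, with 1 library for each mouse, and the values are TPM, in which the estimate of a gene is corrected for transcript length and the genes of a library sum to 1000000. Nup210 mRNA was 9.54, 10.8, 11.9 and 8.81 TPM in the libraries labelled Nup210-/- and 5.71, 10.1, 9.19 and 6.71 TPM in those labelled Nup210+/+, so its level was not lower in the former. In the limma test described below, its log2 fold change, Nup210-/- over Nup210+/+, was 0.44 (SE 0.147, adjusted p = 0.231). With each library left out in turn, this estimate was 0.32 to 0.56. Values per gene cannot show whether exon 2 was present, and all directions below rest on the labels.

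The proteasome is the protease that degrades proteins tagged with ubiquitin. Its barrel, the 20S core, has outer rings of alpha subunits and inner rings of beta subunits, and the beta subunits Psmb5, Psmb6 and Psmb7 cut the substrate. The 19S cap binds the ubiquitin chain, removes it, unfolds the substrate with a ring of ATPases and feeds it into the core. In muscle this pathway removes much of the contractile protein that is lost in wasting.

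The libraries had the transcripts of muscle fibers: 8 markers such as Acta1 and Ckm summed to 97709 to 106410 TPM in Nup210-/- and 90975 to 98407 TPM in Nup210+/+ libraries. Transcripts of other cells differed between libraries and, for 3 of the lists, between genotypes. The summed TPM of leukocyte, fibroblast and proliferation markers was lower in every Nup210-/- library than in any Nup210+/+ library. Proliferation markers summed to 24.35 to 27.76 TPM in Nup210-/- and 28.99 to 112.78 TPM in Nup210+/+ libraries. Sums of endothelial and granulocyte precursor markers overlapped. The 14 leukocyte markers summed to 249 to 275 TPM in Nup210-/- libraries and to 377, 513, 561 and 286 TPM in Nup210+/+ replicates 1 to 4, and all 14 had a lower estimate in Nup210-/-, of which 1 passed an adjusted p of 0.05. The 5 fibroblast markers summed to 569 to 682 and 699.5 to 1114 TPM, and the 5 endothelial markers to 96.2 to 104 and 87.0 to 105 TPM. Nup210+/+ replicate 2 stood apart with 382 TPM of 6 granulocyte precursor markers, which summed to at most 2.12 TPM elsewhere, and with 113 TPM of 8 proliferation markers, which summed to at most 30.3 TPM elsewhere. In a bulk sample, fewer cells of a type and less RNA per cell cannot be told apart. The number of reads behind each library is unknown, so the precision of every value rests on the spread between mice.

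Proteasome transcripts were abundant in all 8 muscles. Together the 50 members held 0.395 to 0.447% of all TPM, and their TPM summed to 3953, 4030, 4281 and 4231 in Nup210-/- replicates 1 to 4 and to 4158, 4473, 4393 and 4095 in Nup210+/+ replicates 1 to 4. The genotypes overlapped in this sum. The catalytic subunit Psmb7 had the highest mean level of all members, with 221 ± 6.59 TPM (SD, n = 4) in Nup210-/- libraries and 218 ± 5.30 TPM (SD, n = 4) in the others. Other subunits of the 20S core that are not immune forms lay between 66.8 TPM for Psma5 and 201 TPM for Psmb4 as means of all libraries. The 17 subunits of the 19S cap with a Psm symbol lay in the same range, from 63.9 TPM for the ATPase Psmc4 to 162 TPM for the ATPase Psmc3. TPM are corrected for transcript length, so these levels may be set beside each other.

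The assembly chaperones help the subunits to come together and then leave. Pomp, whose symbol is outside the set, had a mean of 93.3 TPM. Those among the members were far less abundant, from 8.45 TPM for Psmg4 to 25.9 TPM for Psmg2. The immune subunits Psmb8, Psmb9 and Psmb10 were also low, at means of 11.3, 6.50 and 10.4 TPM. Psmb11, a catalytic subunit known from thymus cortex, was listed at 0 TPM in all 8 libraries. Psma8, an alpha subunit of the testis, was at 0 to 0.53 TPM. These last genes were not tested, which leaves 48 members above a mean of 0.5 TPM.

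**Figure D1:**
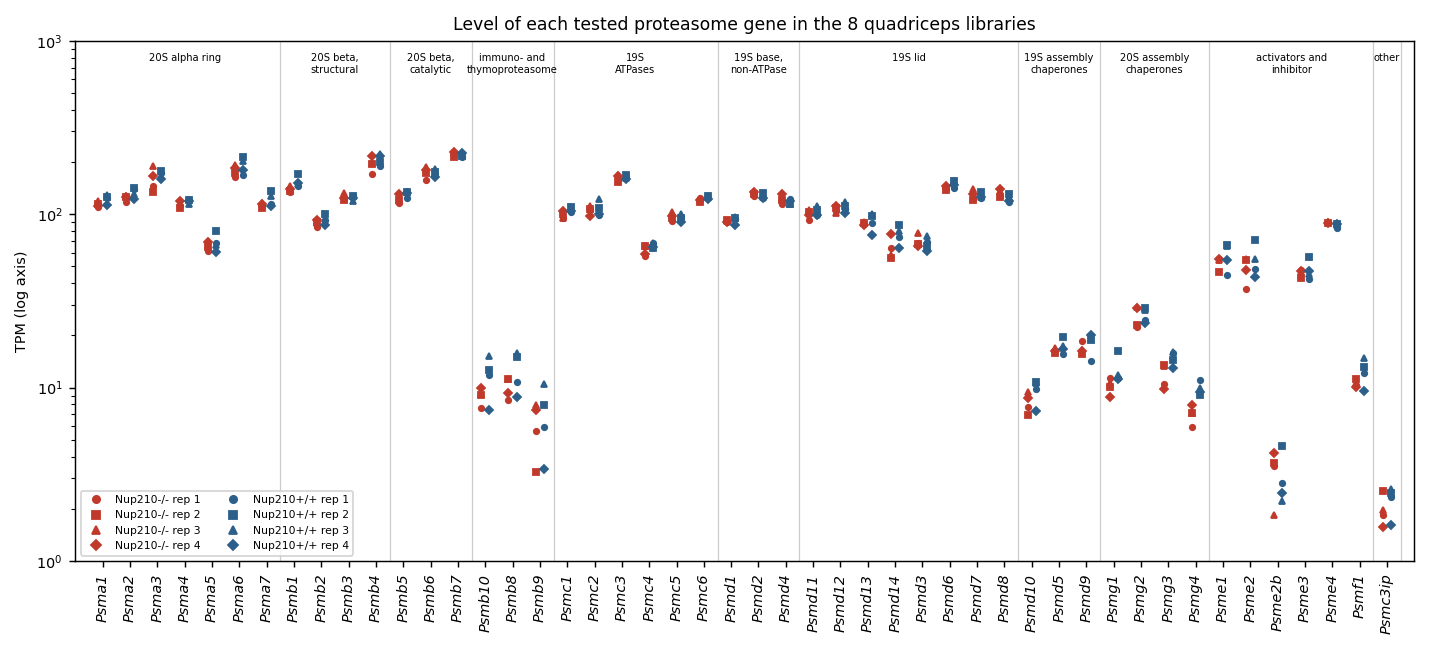
Level of the 48 tested proteasome genes in each library, in TPM on a log axis, with Nup210-/- in red and Nup210+/+ in blue, a marker shape for each replicate and vertical lines between role groups. The core and cap subunits lie in a band from about 60 to 230 TPM in both genotypes, with immune subunits and assembly chaperones below it.

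To compare genotypes, each library was divided by its median ratio to the average library, which puts the typical gene at one level throughout, and log2(scaled TPM + 1) was tested with limma across 14229 genes. No member differed between genotypes at an adjusted p of 0.05 (Benjamini-Hochberg over all genes tested), where 0.112% of all genes did, 0.0492% on the higher and 0.0633% on the lower side. The lowest adjusted p of a member was 0.189, for Psmg4. By the two-sided exact permutation test, which draws on 70 labelings and cannot give a p under 0.0286, no member passed after the same adjustment either, and the smallest adjusted value of any gene was 0.305. At an unadjusted limma p of 0.05, 3 members had a higher and 2 a lower estimate in Nup210-/-, or 10.4% of the 48, below the 14.2% of all genes. In 5 members, also 10.4%, the scaled values of the genotypes did not overlap, near the 9.38% of all genes tested. Of these, Psmd8, Psmd2, Psmd3 and Psmc5 were on the higher side in Nup210-/-, as were 4.78% of all genes, and Psmg4 was on the lower side, as were 4.6%.

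Both counts depended on single libraries. Without Nup210+/+ replicate 4, the number of members without overlap was 12, or 25% against 18.4% of all genes, and 11 members, or 22.9% against 18.8%, passed an unadjusted limma p of 0.05. The count at an unadjusted p was 2, or 4.17% against 12.3% of all genes, without Nup210+/+ replicate 1. Without Nup210+/+ replicate 2 or 3 it was 3, or 6.25% against 13%. Without Nup210-/- replicate 1, 3 or 4 it was also 3, against 11 to 11.5% of all genes. Nup210+/+ replicate 4 was also the library of its genotype with the lowest sum of leukocyte markers, whose part in these counts was not tested. With each library left out in turn, no member passed an adjusted p of 0.05.

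The differences were small where the levels were high. The median log2 fold change of the 48 members was 0.018, against -0.0061 for all genes. For 45 of the 48 the 95% interval of the difference lay inside a 1.5-fold change in either direction, and for 26 inside a 1.2-fold change. The exceptions to the wider bound were Psmb9, Psmb10 and Psme2b, which are among the members of low level. The 34 members with a mean of at least 50 TPM had a median absolute log2 fold change of 0.0552, where the 1301 genes of the same range of levels had 0.107. Their residual SD between mice of one genotype was 0.0907 in the median on the log2 scale, against 0.113 for those 1301 genes. The largest absolute log2 fold change among the 34 was 0.192, for Psmd8.

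**Figure D2:**
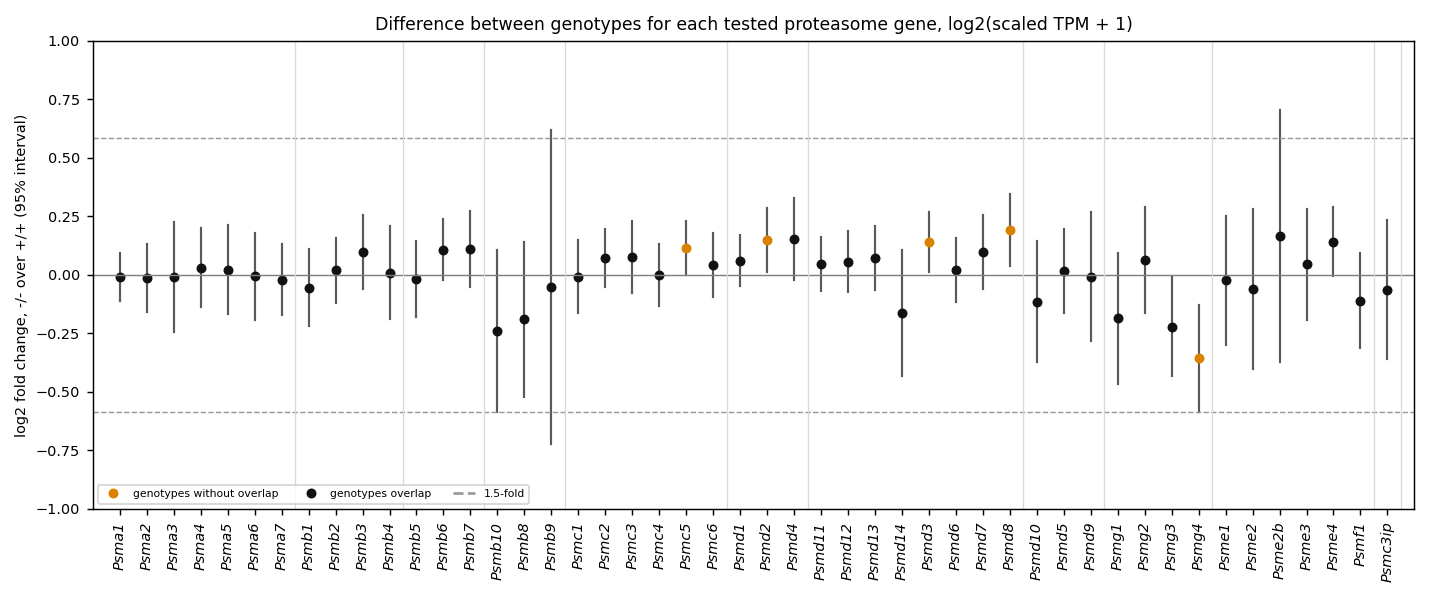
Log2 fold change of each tested proteasome gene, Nup210-/- over Nup210+/+, on the log2(scaled TPM + 1) scale, with its 95% interval from limma, in the same order of role groups as the levels. Orange points are the 5 members whose genotypes did not overlap, and the dashed lines mark a 1.5-fold change, inside which 45 of 48 intervals lie.

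In what follows, values in single libraries are scaled TPM, given for replicates 1 to 4, with Nup210-/- first and Nup210+/+ second, and every adjusted p is from limma with Benjamini-Hochberg adjustment over all genes tested. Fold changes are Nup210-/- over Nup210+/+ on the log2(scaled TPM + 1) scale, where the added 1 shrinks the differences of genes of low level.

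In the alpha ring, whose subunits close the entry of the core, the estimates for Psma1 to Psma7 lay between -0.021 and 0.031 on the log2 scale. Of these 7, 2 had a higher and 5 a lower estimate, with a median of -0.0084, and no adjusted p was below 0.880. The highest was Psma4, at 117, 110.3, 115 and 127 in Nup210-/- and 118, 116, 102 and 125 in Nup210+/+, with a log2 fold change of 0.031 (SE 0.0748). The lowest was Psma7, at 118, 110.0, 116 and 122 and then 110.8, 132, 113 and 117, with a log2 fold change of -0.021 (SE 0.0671). Both genotypes covered nearly one range in either gene. Signs this close to 0 turned under other scalings: Psma4 was at -0.063 with TPM as deposited and Psma7 at 0.0053 with upper-quartile scaling.

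The 4 structural beta subunits, which hold the ring together and do not cut, had a median log2 fold change of 0.014 and adjusted p-values of 0.548 or more. Psmb3 was at 129.8, 122, 131 and 132 against 123, 122, 106 and 131, a log2 fold change of 0.098 (SE 0.0703). Psmb1 was at 141.5, 138, 145 and 149 against 142, 164, 133 and 158, a log2 fold change of -0.054 (SE 0.0722). In Psmb3 the lowest library was Nup210+/+ replicate 3, and in Psmb1 the highest were Nup210+/+ replicates 2 and 4, with the rest of the genotypes overlapping.

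The catalytic subunits did not pass the test either. Psmb5, the chymotrypsin-like subunit and the target of bortezomib, stood at 123, 121.5, 119 and 139 against 121, 129.8, 119.6 and 138. Its log2 fold change was -0.018 (SE 0.0715, adjusted p = 0.933), with a 95% interval from 0.883-fold to 1.10-fold. Psmb6, the caspase-like subunit, was at 167, 176, 187 and 191 against 166, 169.6, 161 and 171, and 3 of the 4 Nup210-/- values lay above every Nup210+/+ value. Its log2 fold change was 0.11 (SE 0.0575, adjusted p = 0.427). Psmb7, the trypsin-like subunit, was at 232, 215, 224 and 243 against 209, 208, 193 and 237, a log2 fold change of 0.11 (SE 0.0716, adjusted p = 0.502). Only Nup210+/+ replicate 4 kept the genotypes of Psmb7 from separating.

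In cells exposed to interferon gamma and in leukocytes, Psmb8, Psmb9 and Psmb10 take the places of Psmb5, Psmb6 and Psmb7 and form the immunoproteasome, which makes peptides suited to MHC class I. All 3 had a lower estimate in Nup210-/-, with a median log2 fold change of -0.19, and none passed the test. Psmb10 was at 8.05, 9.17, 9.09 and 10.7 against 11.4, 12.2, 13.6 and 7.82, a log2 fold change of -0.24 (SE 0.153, adjusted p = 0.497). Psmb8 was at 8.92, 11.3, 11.2 and 9.89 against 10.5, 14.4, 14.2 and 9.21, a log2 fold change of -0.19 (SE 0.146, adjusted p = 0.576). In both genes Nup210+/+ replicates 2 and 3 were the highest libraries of all 8 and Nup210+/+ replicate 4 lay among the low ones. Psmb9 was at 5.91, 3.29, 7.94 and 7.98 against 5.79, 7.62, 9.31 and 3.57, a log2 fold change of -0.054 (SE 0.297, adjusted p = 0.952), and the sign of its estimate turned when Nup210-/- replicate 2, Nup210+/+ replicate 2 or Nup210+/+ replicate 3 was left out, to at most 0.18. Psmb9 lies on the opposite strand to Tap1, with which its exons overlap, and whether the estimates used the strand of the reads is not given in the sources used here.

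The share of each immune subunit in its catalytic pair gives a measure that does not depend on the scaling. Of the TPM of Psmb8 and Psmb5 together, Psmb8 took 6.75, 8.52, 8.60 and 6.63% in Nup210-/- and 7.97, 10.01, 10.6 and 6.24% in Nup210+/+. Psmb9 took 3.42, 1.84, 4.08 and 4.01% and then 3.37, 4.30, 5.46 and 2.04% of its pair with Psmb6, and Psmb10 took 3.36, 4.08, 3.90 and 4.21% and then 5.18, 5.54, 6.56 and 3.19% of its pair with Psmb7. In all 3 pairs the genotypes overlapped, in that of Psmb10 only through Nup210+/+ replicate 4, which had the lowest or the lowest but one of the 8 shares in each pair. Nup210+/+ replicate 3, with the highest sum of leukocyte markers, had the highest share in each pair. The order did not hold throughout: Nup210+/+ replicate 4, with its low shares, had 286 TPM of these markers, above the 249 to 275 TPM of Nup210-/- libraries. The part of leukocyte transcripts in these shares was not tested. Without Nup210+/+ replicate 4 the log2 fold change of Psmb10 was -0.39 (SE 0.105, adjusted p = 0.128) and that of Psmb8 was -0.30 (SE 0.130, adjusted p = 0.262). Without Nup210+/+ replicate 3 they were -0.15 and -0.11, and without Nup210+/+ replicate 2 they were -0.19 and -0.10.

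**Figure D3:**
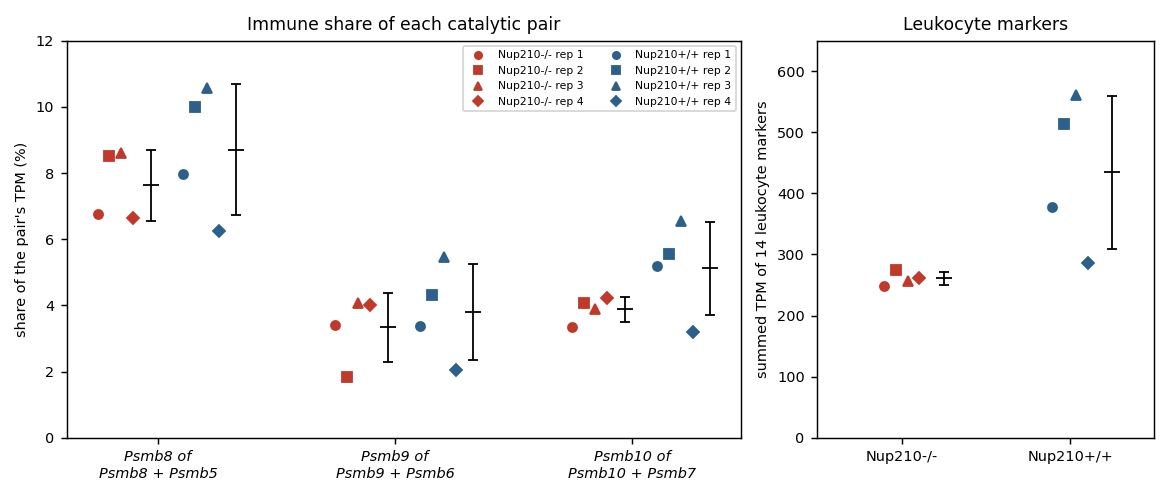
Left, percentage of the TPM of each catalytic pair that belongs to the immune subunit, in each library, with the mean and SD of 4 libraries beside the points. Right, summed TPM of 14 leukocyte markers in the same libraries, where Nup210-/- libraries lie from 249 to 275 and Nup210+/+ libraries from 286 to 561. In both plots Nup210+/+ replicate 3 is the highest. Nup210+/+ replicate 4 is above all Nup210-/- libraries on the right and among the lowest on the left.

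The genes of the 19S cap leaned the other way. Of its 17 subunits with a Psm symbol, 14 had a higher estimate in Nup210-/- and 3 a lower one, with a median log2 fold change of 0.072. Of all 14229 genes tested, 6927 had a higher estimate. With TPM as deposited, higher estimates numbered 1 of 6 ATPases, 2 of 3 other base subunits and 3 of 8 lid subunits. The signs thus depended on the scaling, and in that setting 4322 of all 14229 genes were higher, with a median of -0.085. The medians of ATPases, other base subunits and lid were then -0.037, 0.057 and -0.030, above that of all genes. On scaled TPM, none of the 17 passed the adjusted test. An unadjusted limma p of 0.05 was passed by 3, and 4 had no overlap of genotypes, all on the higher side. Of all genes tested, 7% passed that p and 4.78% had no overlap on this side. With TPM as deposited none of these 4 was free of overlap.

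The ATPases Psmc1 to Psmc6 form the ring that unfolds the substrate. Psmc5, on chromosome 11 of GRCm38 from 106256154 to 106263120, was at 96.7, 96.5, 103 and 105 against 93.8, 91.2, 89.7 and 94.7. Its lowest Nup210-/- value was thus above its highest Nup210+/+ value, by less than the range within either genotype. The log2 fold change was 0.12 (SE 0.0515, adjusted p = 0.355), and the two-sided exact permutation test gave p = 0.0286, the smallest that 4 against 4 can give. Psmc1 had the lowest estimate of the ring, at 101, 102, 94.4 and 112 against 101, 107, 95.2 and 109, a log2 fold change of -0.0075 (SE 0.0688). In the ring as a whole, 4 estimates were higher and 2 lower.

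Of the base subunits outside the ring, Psmd1 and Psmd2 are the large scaffolds and Psmd4 is a receptor for ubiquitin chains. Psmd2 (chr16:20651652-20663414) was at 134.2, 132, 134 and 143 against 120.5, 128, 112 and 129.6, with no overlap. Its log2 fold change was 0.15 (SE 0.0605, adjusted p = 0.306), a difference of 1.11-fold with an interval from 1.01-fold to 1.22-fold. Psmd4 was at 120.3, 123, 124 and 140 against 119, 109.7, 102 and 124.5, a log2 fold change of 0.15 (SE 0.0778, adjusted p = 0.405), and its genotypes overlapped only through Nup210+/+ replicate 4. Psmd1 was at 95.4, 93.2, 91.5 and 95.6 against 91.5, 92.2, 86.0 and 90.5, a log2 fold change of 0.061 (SE 0.0485), which was -0.033 with TPM as deposited. The exons of Psmd1 overlap those of another gene on the same strand, Gm21972.

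The lid removes the ubiquitin chain through the deubiquitinase Psmd14 and is otherwise made of scaffold subunits. Psmd8 (chr7:29174188-29180701) had the highest log2 fold change of the cap genes with a Psm symbol, with 134.1, 127, 136 and 149.6 against 115, 126, 112 and 125. The lowest Nup210-/- library was above the highest Nup210+/+ library by about 1 scaled TPM. The log2 fold change was 0.19 (SE 0.0681, adjusted p = 0.256), or 1.14-fold with an interval from 1.03-fold to 1.27-fold. Psmd3 (chr11:98682554-98695979) was at 72.3, 68.4, 77.5 and 70.5 against 67.2, 63.0, 67.1 and 64.1, a log2 fold change of 0.14 (SE 0.0568, adjusted p = 0.312), also without overlap. The exons of Psmd3 overlap those of Gm12356 on the opposite strand, so the doubt about strand given for Psmb9 holds here too. Psmd14 was the exception of the lid, at 67.0, 56.7, 57.7 and 81.7 against 71.9, 83.1, 70.8 and 67.1. Its log2 fold change of -0.16 (SE 0.120, adjusted p = 0.557) came with the largest error of the cap, since Nup210-/- replicate 4 was nearly as high as the highest Nup210+/+ library. The other 5 lid subunits among the members had log2 fold changes from 0.019 to 0.098.

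The 19S assembly chaperones, which hold ATPases until the base is built, had a median log2 fold change of -0.0075. Psmd5 was at 17.3, 16.1, 16.8 and 17.4 against 15.2, 18.9, 15.6 and 17.4, a log2 fold change of 0.016 (SE 0.0789). Psmd10, also known as gankyrin, was at 8.21, 7.06, 9.37 and 9.33 against 9.54, 10.4, 9.48 and 7.65, a log2 fold change of -0.11 (SE 0.115, adjusted p = 0.677). Here too Nup210+/+ replicate 4 was the library that overlapped with the other genotype.

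The chaperones of the 20S core with a Psm symbol had a median log2 fold change of -0.20, close to the -0.19 of the immune subunits. Without Nup210+/+ replicate 4 the medians were -0.22 and -0.30. With each library left out in turn, they ranged from -0.23 to -0.15 and from -0.30 to -0.10. Both groups are of low level. Of the 14 tested members with a mean under 50 TPM, 4 had a higher and 10 a lower estimate, with a median of -0.086. Of the 34 members of higher level, which include all 17 cap subunits, 22 were higher and 12 lower, with a median of 0.036. The part of level in these directions was not tested. Psmg1 and Psmg2 work as a pair, and so do Psmg3 and Psmg4, and both pairs guide the alpha subunits into a ring. Psmg4 (chr13:34162964-34178173) was at 6.30, 7.18, 7.13 and 8.44 against 10.7, 8.74, 8.85 and 9.95, so that every Nup210-/- library lay below every Nup210+/+ library. In TPM as deposited it was also free of overlap, with means of 7.03 ± 0.8005 and 9.88 ± 0.842 (SD, n = 4). Its log2 fold change was -0.36 (SE 0.101, adjusted p = 0.189), or 0.781-fold with an interval from 0.667-fold to 0.915-fold, and the exact permutation test gave p = 0.0286. With upper-quartile scaling the log2 fold change was -0.33 and the genotypes overlapped. Psmg4 is thus the member that came nearest to the threshold, and it did not pass it.

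Its partner Psmg3 was at 11.2, 13.7, 13.2 and 10.5 against 15.4, 13.9, 14.2 and 13.5, and the genotypes touched only through Nup210-/- replicate 2 and Nup210+/+ replicate 4. The log2 fold change was -0.22 (SE 0.0936, adjusted p = 0.330), and its exons overlap those of Gm26938 on the same strand. Psmg1 was at 11.99, 10.3, 10.6 and 9.37 against 11.03, 15.6, 10.5 and 11.8, a log2 fold change of -0.19 (SE 0.124, adjusted p = 0.517), which was -0.070 without Nup210+/+ replicate 2. Psmg2 did not share the lower estimate of the others: it was at 23.7, 23.2, 28.9 and 30.5 against 23.8, 27.7, 24.9 and 24.7, a log2 fold change of 0.062 (SE 0.0999, adjusted p = 0.806), and -0.029 with TPM as deposited. The median of the 4 was between -0.29 and -0.18 under the other scalings. As a median of deviations from the mean of all libraries, the 4 genes were at -0.17, -0.14, -0.039 and -0.11 in Nup210-/- and at 0.094, 0.086, 0.016 and 0.050 in Nup210+/+ on the log2 scale.

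**Figure D4:**
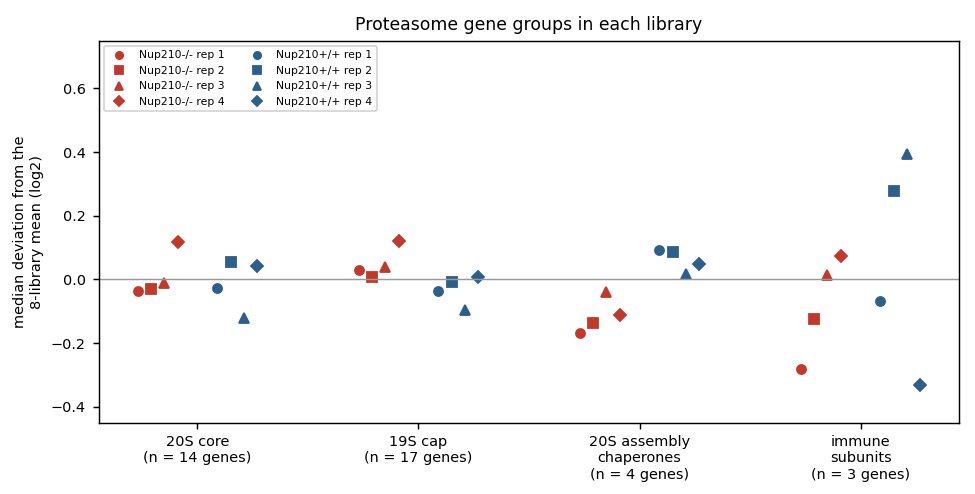
Median deviation of each proteasome group from the mean of the 8 libraries, on the log2(scaled TPM + 1) scale, for every library. The 20S assembly chaperones Psmg1 to Psmg4 lie below 0 in the 4 Nup210-/- and above 0 in the 4 Nup210+/+ libraries. The 20S core and the 19S cap lie within 0.13 of 0, and the genotypes of the core are mixed. Those of the cap, higher in Nup210-/-, overlap only through Nup210-/- replicate 2 at 0.0062 and Nup210+/+ replicate 4 at 0.0072. The immune subunits spread from -0.33 to 0.39 within Nup210+/+.

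Activators open the core without the 19S cap. Psme4, which encodes PA200, had the smallest coefficient of variation of all members, 2.45% over the 8 libraries in TPM, with a log2 fold change of 0.14 (SE 0.0650, adjusted p = 0.367). Psme1 and Psme2, the interferon-inducible PA28 pair, had log2 fold changes of -0.023 (SE 0.122) and -0.060 (SE 0.152), and Psme3, the nuclear PA28 gamma, had 0.045 (SE 0.105). Psme2b, a gene with a single exon that is a copy of Psme2 and may share reads with it, was at 3.72, 3.74, 1.84 and 4.47 against 2.73, 4.46, 1.99 and 2.60, a log2 fold change of 0.17 (SE 0.238). Psmf1, the inhibitor PI31, was at 10.9, 11.4, 10.5 and 10.8 against 11.8, 12.7, 13.2 and 9.98, a log2 fold change of -0.11 (SE 0.0896, adjusted p = 0.602). As in Psmb10, only Nup210+/+ replicate 4 was within or below the range of the other genotype. Psmc3ip, the member that is no proteasome gene, had 1.56 to 2.54 TPM in Nup210-/- libraries and a log2 fold change of -0.063 (SE 0.131).

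The partners of the proteasome outside this set of symbols also had mostly higher estimates. Of 17 genes listed, all tested, 14 had a higher estimate in Nup210-/- and 3 a lower one, where 6927 of all 14229 genes had a higher one. The median log2 fold change of the 17 was 0.12, which was 0.025 with TPM as deposited. At an unadjusted limma p of 0.05, 7 passed on the higher side and 0 on the lower, against 7% and 7.18% of all genes. With TPM as deposited, where 335 and 1679 of all 14229 genes passed, 4 and 1 of the partners did. On scaled TPM, 5 had no overlap of genotypes, where 4.78% of all genes had none on the higher side. None passed an adjusted p of 0.05. The 8 muscle fiber markers all had a higher estimate in Nup210-/- too, with a median log2 fold change of 0.18, and their part in the higher estimates of cap and partners was not tested. The list of partners was drawn up with earlier results of these data known.

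Ddi2 had the largest fold change among the members and pathway genes tested. It encodes a protease that binds ubiquitin and cuts Nfe2l1 into its active form. Ddi2 was at 21.4, 20.4, 21.8 and 21.8 against 13.9, 11.6, 15.9 and 12.7, with means of 20.7 ± 0.794 and 14.05 ± 2.78 TPM (SD, n = 4). The Nup210-/- libraries were close to each other and well above the other genotype. The log2 fold change was 0.63 (SE 0.0932, adjusted p = 0.0528), or 1.55-fold with an interval from 1.34-fold to 1.79-fold. This missed the threshold, and the adjusted p passed it with a pseudocount of 0.1 (0.0495), a mean TPM of at least 1 (0.0487), robust eBayes (0.0485) and library weights (0.0228). It did not pass under any other of the 20 alternatives, among them TPM as deposited, upper-quartile scaling, limma without trend and each library left out. On chr4:141677549-141723419 the exons of Ddi2 overlap those of Rsc1a1 on the same strand, and reads of the shared sequence cannot be told apart. Rsc1a1 had a log2 fold change of 0.70 (SE 0.185, adjusted p = 0.170), with overlapping genotypes.

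Adrm1, a ubiquitin receptor of the cap known as Rpn13, was at 63.4, 62.7, 60.1 and 63.6 against 53.4, 52.9, 49.8 and 54.4. The genotypes were apart by more than the range of either. Its log2 fold change was 0.24 (SE 0.0520, adjusted p = 0.117). Zfand5, an activator of the 26S proteasome in muscle wasting, had 0.27 (SE 0.0696, adjusted p = 0.169) and no overlap. The shuttle factor Ubqln4, which carries tagged proteins to the cap, had a log2 fold change of 0.23 (adjusted p = 0.248), and the cap-bound thioredoxin Txnl1 had 0.19. The exons of Txnl1 overlap those of Wdr7 on the opposite strand. Akirin2, which takes proteasomes into the nucleus, had 0.21, and the core chaperone Pomp had 0.12, with adjusted p-values of 0.228 and 0.599. The lowest of the list was Zfand2a, at -0.17 (adjusted p = 0.572).

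**Figure D5:**
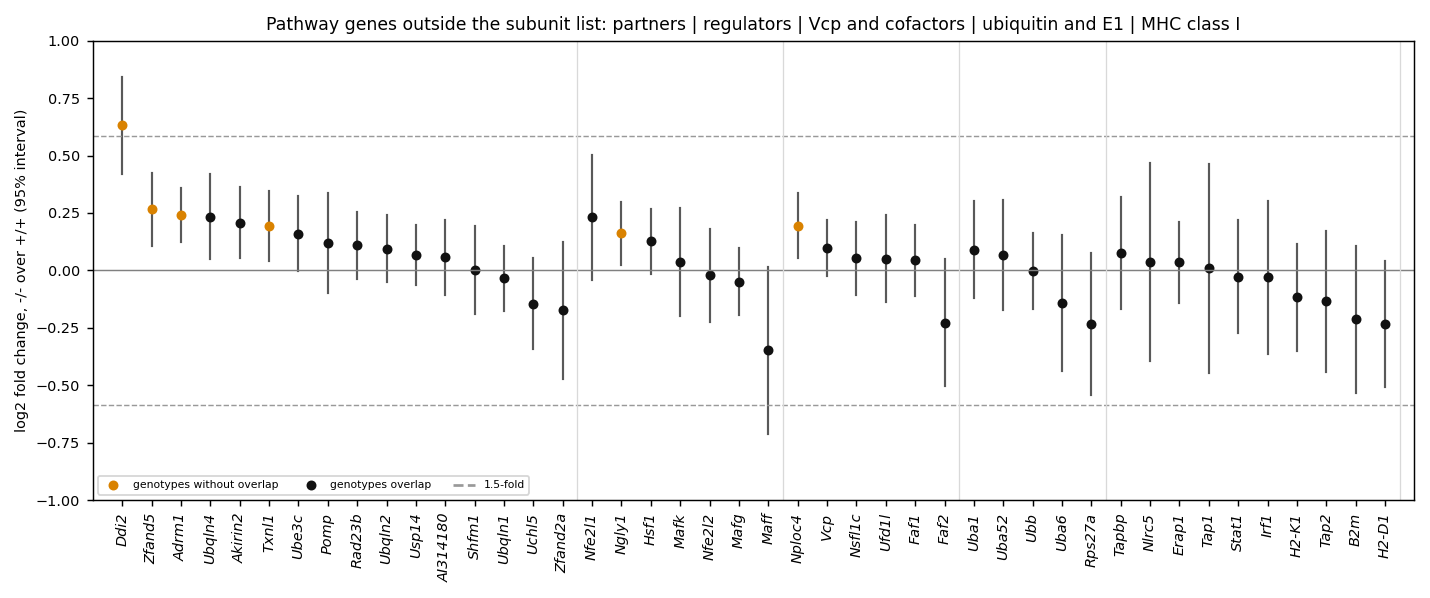
Log2 fold change, Nup210-/- over Nup210+/+, with its 95% interval from limma, of genes of the pathway outside the Psm symbols, on the log2(scaled TPM + 1) scale. From left to right stand partners, regulators, Vcp and cofactors, ubiquitin and E1 genes and MHC class I genes, with genes without overlap of genotypes in orange. Ddi2, at 0.63, lies furthest from 0.

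Nfe2l1 is the factor that raises transcription of proteasome genes when degradation falls short, through antioxidant response elements in their promoters. Its mRNA was at 257, 257, 206 and 265.5 against 194.5, 220.3, 176 and 251. The genotypes overlapped through Nup210-/- replicate 3 and Nup210+/+ replicates 2 and 4, and the log2 fold change was 0.23 (SE 0.121, adjusted p = 0.416). Ngly1, which removes the glycans of Nfe2l1 before it is cut, had 0.16 (SE 0.0610, adjusted p = 0.282) with no overlap of genotypes. The exons of Ngly1 overlap those of Oxsm on the opposite strand. The 7 regulators had 4 higher and 3 lower estimates, with a median of 0.037, which was -0.051 with TPM as deposited, and the lowest was the small Maf factor Maff at -0.35 (SE 0.160, adjusted p = 0.365).

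The promoters of the members were searched for the core letters of that element, TGACNNNGC, on both strands of the 250 bases before each start site (RefSeq, GRCm38.p6). Entries were given for 42 of the 50 genes, with 45 promoters. Of these, 5, or 11.1%, held a match, where 10.2% of 32851 promoters did. The 5 windows are shown because they are the sites in these promoters that carry the letters Nfe2l1 is known to bind, with the match in capitals, 5′ to 3′ on the strand of the gene, and in Psmc6 and Psmd12 the match reads on the opposite strand.
Psmb5: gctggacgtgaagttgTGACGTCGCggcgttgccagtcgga
Psmb6: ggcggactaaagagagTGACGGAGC
Psmc6: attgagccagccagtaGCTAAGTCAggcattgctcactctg
Psmd12: tctGCTGTGTCAcatttgcccccctcag
Psmd9: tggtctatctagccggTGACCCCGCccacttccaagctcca
They lie at chr14:54618018-54618058 (minus strand), chr11:70525332-70525356, chr14:45329581-45329621, chr11:107479278-107479305 and chr5:123228143-123228183. In GENCODE M21 the windows of Psmb6, Psmc6 and Psmd12 overlap no gene, that of Psmb5 overlaps the first exon by 5 bases, and that of Psmd9 lies in an intron of longer Psmd9 transcripts and of Gm26745 on the opposite strand. The 5 genes had log2 fold changes of -0.018, 0.11, 0.041, 0.056 and -0.0075 in this order, all with overlapping genotypes. A match is a run of letters and no measurement of binding.

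Other letters were found in the same promoters. GGGCGG, the GC box, was in 51.1% of member promoters and 32.7% of all, CCAAT in 33.3% and 33.8%, and GAAA repeated after any 2 bases, part of the interferon-stimulated response element, in 6.67% and 2.98%, all on both strands. The last were 3 promoters, of Psmb3, Psmd4 and Psmd9. These shares are descriptions and were not tested.

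Vcp, the ATPase that pulls tagged proteins out of complexes and hands them to the proteasome, and its cofactors had 5 higher and 1 lower estimate among 6, with a median log2 fold change of 0.051 that was -0.042 with TPM as deposited. Nploc4, which binds the ubiquitin chain, had 0.19 (SE 0.0622, adjusted p = 0.214) without overlap, and Faf2 had -0.23 (adjusted p = 0.427). Ubiquitin and E1 genes were 3 higher and 3 lower, and the lowest was Rps27a at -0.23 (adjusted p = 0.463), with 185 to 292 TPM in Nup210+/+ libraries. With TPM as deposited 1 of the 6 was higher, where 4322 of all 14229 genes were. The MHC class I genes served by the immunoproteasome had 4 higher and 6 lower estimates, from -0.23 for H2-D1 to 0.074 for Tapbp. With TPM as deposited 0 of these 10 were higher, where 4322 of all 14229 genes were. Without Nup210+/+ replicate 3, where 6916 of 14175 genes were higher, 6 of the 10 were, with a median log2 fold change of 0.056 in place of -0.029. None of these 3 lists held a gene with an adjusted p of 0.05 or less.

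The members are spread over 16 chromosomes. Of their pairs, 3 are neighbours in GRCm38: Psmb11 and Psmb5 lie 3411 bases apart on chromosome 14, Psme1 and Psme2 5912 bases apart on the same chromosome, and Psmb8 and Psmb9 9957 bases apart on chromosome 17. The exons of 15 members overlap another gene, 4 of them on the same strand, namely Psmb5, Psmd1, Psme2b and Psmg3.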

How the data were processed

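Quadriceps RNA of 8 mice was measured, 1 library each, and samples were grouped by genotype in the labels. Per the labels and the study's methods, the authors trimmed single-end reads of directional poly(A) libraries with cutadapt 2.3, aligned them to mm10 with STAR 2.7.0d, estimated expression with RSEM 1.3.1 and Ensembl annotations, and deposited TPM per gene and library. TPM are relative to the library total, so a gene that takes more lowers the rest, and depth is unknown. The authors' estimated counts were not used here.

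TPM were scaled by the median of ratios over 15225 genes above 0 in all libraries, and log2(scaled TPM + 1) was tested with limma 3.58.1 in R 4.3.3 for the 14229 genes whose mean TPM reached 0.5 (eBayes with trend, genotype only, Benjamini-Hochberg over all genes, adjusted p of 0.05). The script was tested on simulated data. Single genes were compared by two-sided exact permutation tests. Where nothing says that the mice came from separate litters or days, p-values measure only the spread between these 8 animals.

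The members, role groups, other lists and markers were chosen with earlier results of these data known. Named with all values were the catalytic and immune subunits, members with an unadjusted limma p under 0.05 and the highest and lowest fold change of each role group. From other lists, the genes chosen were those with such a p, the extremes and Nfe2l1, Pomp, Adrm1 and Nup210. Of these, Ddi2, Adrm1, Nfe2l1 and Nup210 are given with the value in every library, and the others reported have a fold change. Psmg1, Psme1 to Psme4, Psmc3ip, Rsc1a1, the genes at the ends of a range of levels and the genes with a promoter match were named outside this rule after their values were seen. Of the other lists, 2 genes enter the counts and are not reported here by themselves. Coordinates are from GENCODE M21 (GRCm38), matched by Ensembl identifier for 50 of 50 members. Alternatives were pseudocounts of 0.1 and 0.5, filters on mean TPM, other scalings, limma without trend, robust or with library weights, the replicate number as a block, and each library left out.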

Additional observations from a re-analysis of the deposited data

Results flagged for a closer look

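In groups of 4 libraries, a value was taken as standing apart where its gap to the nearest of the others passed Dixon's 95% critical value. Of 132 groups, 7 held one, where chance gives about 1 in 20. No member of the proteasome set was among them.

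Nup210+/+ replicate 2 had 381.69 TPM of granulocyte precursor markers, where the other 3 libraries of its genotype had 0.31 to 2.12, and 112.78 TPM of proliferation markers, where they had 28.99 to 30.29. The same library had 291.6 TPM of Rps27a, a ubiquitin and ribosomal protein fusion, against 185 to 198 TPM. H2-D1 stood at 143.35 TPM in Nup210+/+ replicate 3, where the others had 86.1 to 92.4 TPM. Among the partners, Nup210-/- replicate 3 had 21.84 TPM of Ddi2, where its group had 20.1 to 20.4 otherwise. Nup210-/- replicate 1 had 33.98 TPM of Txnl1, below the 36.8 to 37.3 of its group, and Nup210+/+ replicate 4 had 40.9 TPM of Ubqln4, above the 37.8 to 38.3 of its group. The gaps of the last 3 were small in TPM and arose in groups of narrow range.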

How the results depend on the processing

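No member passed an adjusted p of 0.05 in limma under any of the 20 alternatives. With TPM as deposited 3 members had no overlap of genotypes (Psme4 higher, Psmb1 and Psmg4 lower), or 6.25% against 8.41% of all genes. With upper-quartile scaling there were 3, or 6.25% against 9.37%. With one library left out there were 5 to 12, or 10.4 to 25%, against 12.2 to 18.4% of all genes. The 12 were without Nup210+/+ replicate 4. At an unadjusted p of 0.05, 2 members (4.17%, against 13.7% of all genes) passed without the trend. With TPM as deposited 3 did (6.25% against 14.2%), and without a filter 7 did (14.3% against 10.2%). The median log2 fold change of the members was -0.075 with TPM as deposited, where that of all genes was -0.085, and -0.0147 to 0.0503 with one library left out. Over all genes, 16 passed an adjusted p of 0.05, 0 with upper-quartile scaling, without the trend or at a mean TPM of at least 0.1, 1 without a filter, 27 at a mean TPM of at least 1 and 84 with library weights; at an unadjusted p, 1850 to 2481 did under the settings that keep all libraries.

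Of 44 named genes, 35 kept the sign of the log2 fold change under all 20 alternatives. With TPM as deposited the sign turned for Psma4 (-0.063), Psmd1 (-0.033), Psmd5 (-0.073), Psmg2 (-0.029) and Tapbp (-0.016), without mitochondrial genes and the 20 genes of highest TPM for Psma4 (-0.0045) and Psmd5 (-0.017), with upper-quartile scaling for Psma7 (0.0053), Psmb5 (0.0081) and Psmc1 (0.019), and with library weights for Psma7 (0.013). With one library left out, estimates ranged from -0.026 to 0.070 for Psma4, -0.050 to 0.035 for Psma7, -0.068 to 0.022 for Psmb5, -0.28 to 0.18 for Psmb9, -0.052 to 0.030 for Psmc1, -0.025 to 0.073 for Psmd5 and -0.0056 to 0.12 for Psmg2. The cause was not tested.

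Both genotypes carry replicate numbers 1 to 4 but are different mice. Same-numbered libraries had correlations of -0.0329, 0.0054, 0.0192 and 0.0857 in their deviations, and libraries of unlike number had -0.0814 to 0.1033. The labels do not say whether the numbers pair mice, and these correlations cannot decide it. With the replicate block, 0 members and 0 genes passed an adjusted p of 0.05. At an unadjusted p 4 members did, or 8.33% against 13% of all genes, and the members' median was 0.018. As depth is unknown, differences in Psma8, Psmb11 and Psme2b could not be judged at these levels.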
